A study of Mus musculus with 18 samples.

Results

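The 9 genes described here mark B cells and the antibody-secreting cells that arise from them, and they were measured in cultures meant to hold macrophages. They were Ighm, Igkc, Jchain, Cd79a, Cd79b, Ms4a1, Pax5, Vpreb3 and Igll1, taken by name from a table of 34745 genes, with 1 row for each. RNA sequencing had been run on bone marrow-derived macrophages from mice 4 to 8 weeks old on a C57BL/6 background, either Zmat1 knockout animals (a global knockout, labelled KO) or wild type littermates (labelled WT). All cells had been grown with the macrophage growth factor M-CSF. Those of days 1 and 3 had then also received RANKL, the cytokine that drives osteoclast formation, while those of day 0 had not. Label and day together define 6 groups with 3 libraries in each, 18 in all. Zmat1 itself did not follow the labels, with 49 to 99 counts in the 9 libraries labelled KO and 32 to 91 in the 9 labelled WT, and whether the counted reads fall outside the deleted part was not tested. Directions are therefore given by label only. The labels also do not say whether libraries of a group came from separate animals. P-values therefore measure the spread between these libraries.

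B cells develop in the bone marrow. A pro-B cell first rearranges its heavy chain locus and pairs the new heavy chain with a surrogate light chain, to which Igll1 (the lambda 5 subunit) contributes, while Vpreb3 is a related protein of early B cells. Ighm encodes the constant part of the IgM heavy chain and Igkc that of the kappa light chain. Cd79a and Cd79b form the signalling pair that holds the antibody in the membrane as the B cell receptor, Ms4a1 encodes CD20 on the surface of the B cell, and Pax5 is the transcription factor that keeps a cell in the B lineage. A plasma cell has switched Pax5 and Ms4a1 off, secretes antibody in bulk, often of the IgG or IgA class, and makes Jchain, the peptide that joins IgM or IgA units.

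Libraries stood apart in ways that the groups do not explain, and those are given first. Total counts ran from 13789775 to 17559958 per library, and 14241 genes passed the filter on low counts. A double hyphen was written in the titles of 5 libraries (WT day 0 library 1, a second WT day 1 library numbered 1 and here called 1b, KO day 0 library 2, and KO day 1 libraries 1 and 2). In these 5 the summed level of 10 erythroid genes was at most 1.00 CPM (the count scaled by library size), against 15.7 to 24.7 CPM in the other 13. The macrophage list (Csf1r, Adgre1, Lyz2 and others) summed to 35691 to 67252 CPM on days 0 and 1 and to 7367 to 19455 CPM on day 3. All 11 of its genes were counted in every library. Of the other lists, the 8 genes of plasmacytoid dendritic cells summed to 16.5 to 74.2 CPM and the 13 of T or NK cells to 38.3 to 230.2 CPM. The 12 neutrophil genes ranged from 44.1 CPM in WT day 3 library 2 to 13379 CPM in KO day 0 library 3. The 13 genes of stromal cells or osteoblasts summed to 75.4 to 7454 CPM on days 0 and 1 and to 10254 to 26834 CPM on day 3. In bulk RNA, fewer cells of a type and less RNA per cell cannot be told apart.

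Of the 9 genes 5 had a promoter in the RefSeq table of this build, and 3 of these are shown because their genes followed different courses below. Each runs 5′ to 3′ on the strand of its gene (GRCm38.p6), from 250 bases before to 50 bases after the transcription start, and capitals mark matches to the searched motifs. The Vpreb3 window lies at chr10:75948050-75948349 on the plus strand, the Cd79a window at chr7:24897247-24897546 on the plus strand and the Jchain window at chr5:88527848-88528147 on the minus strand.
Vpreb3: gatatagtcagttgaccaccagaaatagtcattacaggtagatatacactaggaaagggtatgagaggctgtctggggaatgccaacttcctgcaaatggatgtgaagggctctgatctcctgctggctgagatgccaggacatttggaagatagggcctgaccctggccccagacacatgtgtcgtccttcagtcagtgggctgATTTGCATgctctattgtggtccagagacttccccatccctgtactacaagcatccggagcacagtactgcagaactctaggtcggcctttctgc
Cd79a: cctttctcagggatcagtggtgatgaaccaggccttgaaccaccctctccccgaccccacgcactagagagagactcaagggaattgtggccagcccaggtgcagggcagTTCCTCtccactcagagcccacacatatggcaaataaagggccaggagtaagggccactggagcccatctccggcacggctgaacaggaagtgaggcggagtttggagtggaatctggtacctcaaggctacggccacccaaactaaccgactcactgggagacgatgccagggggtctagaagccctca
Jchain: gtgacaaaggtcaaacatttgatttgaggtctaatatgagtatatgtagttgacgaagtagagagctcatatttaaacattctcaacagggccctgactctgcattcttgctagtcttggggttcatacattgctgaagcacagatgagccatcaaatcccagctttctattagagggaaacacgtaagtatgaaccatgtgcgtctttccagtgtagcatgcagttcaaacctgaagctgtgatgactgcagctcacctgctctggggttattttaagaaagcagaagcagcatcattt
The motifs were the octamer ATGCAAAT bound by Oct factors, the EBF1 core (TCCC, any 2 bases, GGGA) and the PU.1 core GAGGAA, searched on both strands, and no matches overlapped. The octamer stood in reverse in the Vpreb3 window, starting 45 bases before the RefSeq transcription start, and 1.74% of 32851 promoter windows of this length held it. That window lies inside the interval counted for Vpreb3, which begins at 75943057, so the RefSeq start is not the start of that interval. The Cd79a window held the PU.1 core in reverse, a match found in 28.3% of all windows, and the Jchain window held none of the 3. The EBF1 core (0.904% of all windows) matched in none of the 5 windows. A match describes letters and is not a measured binding site.

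The table gave all 9 genes the same intervals as the GENCODE M21 annotation of GRCm38. Ighm (ENSMUSG00000076617, chromosome 12, 113418558 to 113422730, minus strand) and Igkc (ENSMUSG00000076609, chromosome 6, 70726435 to 70726966, plus strand) are annotated as immunoglobulin constant genes and the other 7 as protein coding. Jchain (ENSMUSG00000067149) spans 88519809 to 88527891 on chromosome 5, Cd79a (ENSMUSG00000003379) spans 24897381 to 24902197 on chromosome 7, and Cd79b (ENSMUSG00000040592) spans 106311341 to 106314762 on chromosome 11. Ms4a1 (ENSMUSG00000024673) spans 11249675 to 11266241 on chromosome 19, Pax5 (ENSMUSG00000014030) 44524757 to 44710487 on chromosome 4, Vpreb3 (ENSMUSG00000000903) 75943057 to 75949657 on chromosome 10 and Igll1 (ENSMUSG00000075370) 16860671 to 16863985 on chromosome 16. The Igkc interval also held Gm43291 on the same strand, with 25 counts over the 18 libraries against 13649 for Igkc. The overlapping antisense genes of Ms4a1 and Pax5 had 0 counts.

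Before RANKL, the antibody genes were by far the most abundant of the set and the genes that define a B cell were scarce. Per transcript length, as the authors' FPKM values, Ighm led in the day 0 libraries labelled WT at 137 ± 28.7 FPKM (SD, n = 3), followed by Igkc at 29.4 ± 24.7, Cd79b at 4.62 ± 2.55 and Cd79a at 1.82 ± 2.00. Jchain (0.937 ± 0.765 FPKM), Vpreb3 (0.679 ± 0.565), Pax5 (0.245 ± 0.249) and Ms4a1 (0.118 ± 0.107) came after these. Only Ighm stood clear of the next gene in that order, with a lowest value of 112 FPKM against a highest of 50.6 FPKM for Igkc, and all lower neighbours overlapped. In the day 0 libraries labelled KO the order of the leading pair was the other way, with Igkc at 238 ± 184 FPKM and Ighm at 132 ± 23.3 FPKM, and their ranges overlapped. Igll1 was nearly absent, with 2 counts in WT day 0 library 3, 1 count in KO day 1 library 3 and 0 in the other 16 libraries. Where Igll1 had 0 counts, up to 3 counts in a library are allowed for, and Igll1 was the single gene of the 9 that did not pass the filter.

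**Figure D1:**
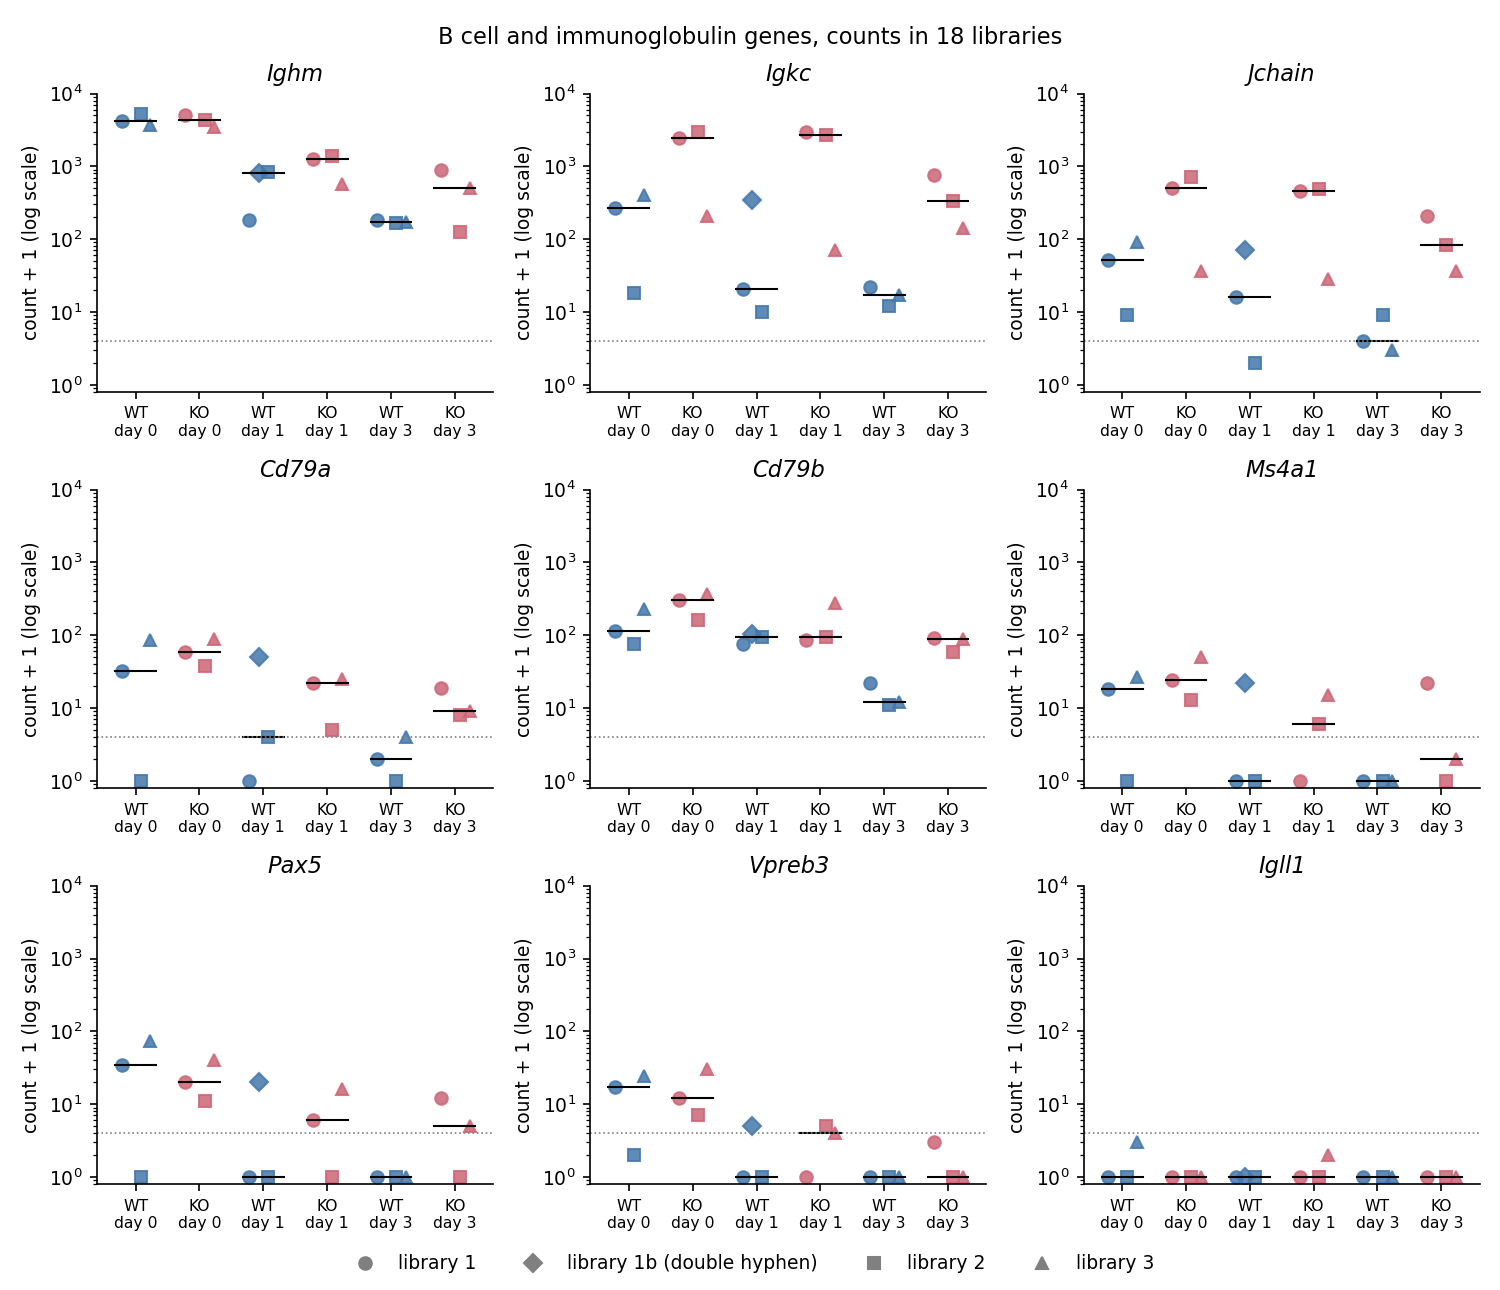
Count plus 1 (log scale) of each of the 9 genes in every library, by group. Symbols give the library number, blue is labelled WT and red labelled KO, the black line is the group's median, and the dotted line marks a count of 3. Ighm falls from day 0 on in both labels, Igkc and Jchain stand highest in KO libraries 1 and 2, and the lower genes are at or near 0 in several WT libraries.

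Ighm was the one gene of the set with high counts in every day 0 library, and it fell with the days in culture. The 3 day 0 libraries labelled WT held 4149, 5174 and 3652 counts and those labelled KO 5018, 4354 and 3459. On day 1 the WT libraries held 183 (library 1), 810 (library 1b) and 837 counts, and the KO libraries 1279, 1398 and 566. On day 3 they held 180, 164 and 173 counts in WT and 882, 126 and 496 in KO. The day 3 counts of WT lay close together and those of KO were spread, with library 2 of KO below all 3 of WT and the other 2 above. In CPM the mean fell from 335 ± 70.0 to 45.4 ± 30.2 and then 9.55 ± 0.224 in the libraries labelled WT, and from 315 ± 55.8 to 73.8 ± 31.2 and then 29.4 ± 22.4 in those labelled KO (SD, n = 3 each).

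From day 0 to day 3 Ighm fell by 5.13 on the log2 scale in the libraries labelled WT (SE 0.709, adjusted p = 6.88e-05, edgeR), and by 3.42 in those labelled KO (SE 0.651, adjusted p = 0.00108). In neither label did the 2 days overlap. Already on day 1 it was lower, and fell by 2.88 in WT (SE 0.636, adjusted p = 0.0402), but in 4 of the 6 fits with 1 library left out it no longer passed (without WT day 0 library 1 or 2 or WT day 1 library 1 or 2, with an adjusted p of up to 0.168). In KO the log2 fold change to day 1 was -2.09 (SE 0.615, adjusted p = 0.274), with every day 1 library under every day 0 library. The change to day 3 differed between the labels by 1.71 on the log2 scale (SE 0.853, adjusted p = 0.911), so a difference in the fall was not shown.

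Igkc and Jchain differed more between the libraries of a day than between days 0 and 1. Igkc, the kappa light chain, held 266, 17 and 397 counts in the day 0 libraries labelled WT and 2450, 2973 and 208 in those labelled KO. On day 1 the WT libraries held 20 (library 1), 340 (library 1b) and 9 counts, and the KO libraries 2933, 2694 and 69. On day 3 the counts were 21, 11 and 16 in WT and 750, 334 and 141 in KO. KO libraries 1 and 2 were thus the highest of their day on all 3 days, KO library 3 was within the range of the WT libraries on days 0 and 1, and every KO library was above every WT library on day 3. The day 1 libraries with high Igkc (WT 1b, KO 1 and KO 2) were also the 3 with a double hyphen in the title, so on day 1 title style and level cannot be told apart, whereas on day 0 KO library 1, with a single hyphen, was high and WT library 1, with a double hyphen, was not.

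Jchain, the joining chain of plasma cells, was likewise highest in KO libraries 1 and 2 on each day, at a lower level than Igkc. It held 50, 8 and 91 counts in WT and 507, 714 and 36 in KO on day 0, then 15 (library 1), 70 (library 1b) and 1 in WT and 456, 491 and 27 in KO on day 1. On day 3 there were 3, 8 and 2 counts in WT and 210, 81 and 36 in KO. Over the 18 libraries log2 CPM of Igkc and Jchain went together with r = 0.98, a description of libraries that share their culture and depth. Neither changed from day 0 to day 1 beyond the spread, with a log2 fold change of -0.12 (SE 1.31) for Igkc and -0.50 (SE 1.17) for Jchain in KO, and of -0.80 (SE 1.39) and -0.77 (SE 1.29) in WT. In the same libraries labelled KO the mean of Ighm went down 4.26-fold between those days, while that of Igkc went down 1.08-fold.

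In the libraries labelled WT, Igkc fell by 4.28 on the log2 scale from day 0 to day 3 (SE 1.68, adjusted p = 0.0464), from 17.2 ± 14.1 to 0.876 ± 0.219 CPM. That call was lost in 5 of the 6 fits leaving out 1 library (highest adjusted p = 0.116, without WT day 3 library 2). Jchain went from 3.75 ± 2.96 to 0.246 ± 0.196 CPM in WT, with a log2 fold change of -3.91 (SE 1.58, adjusted p = 0.052), and it passed without WT day 0 library 2 (adjusted p = 0.0447). In KO, Igkc went from 140 ± 111 to 24.4 ± 18.7 CPM with a log2 fold change of -2.52 (SE 1.40, adjusted p = 0.158). Jchain went from 31.2 ± 26.5 to 6.50 ± 5.40 CPM with a log2 fold change of -2.26 (SE 1.23, adjusted p = 0.15), and neither passed the test.

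The IgG and IgA heavy chains were high in the libraries where the kappa chain was high, while log2 CPM of Ighm and Igkc had r = 0.55 over the 18 libraries. Counts on the constant genes of all heavy chain classes summed to 9747 and 9640 in KO day 0 libraries 1 and 2, of which Ighm took 51.5% (exact Clopper-Pearson 95% interval 50.5 to 52.5) and 45.2% (44.2 to 46.2). In the other 4 day 0 libraries Ighm took 89.3% to 99.3%. On day 1 its share was 20.1% and 22.9% in KO libraries 1 and 2, 59.4% in WT library 1b and 87.4% to 98.5% in the remaining 3. On day 3 the share was 45.4% (43.1 to 47.6), 15.7% (13.3 to 18.4) and 87.6% (84.6 to 90.2) in KO libraries 1, 2 and 3, and 83.2% to 94.5% in WT. Such intervals cover counting error only, since copies made by PCR were not told apart.

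The rest of the heavy chain counts were IgG and IgA. In KO library 2 the IgG genes (Ighg1, Ighg2b, Ighg2c and Ighg3) took 25.0%, 36.8% and 47.9% on days 0, 1 and 3, and Igha took 29.8%, 40.2% and 36.1%. KO library 1 had 31.1%, 53.8% and 29.3% of IgG on those days, and 17.3%, 26.1% and 25.2% of Igha. In KO library 3 IgG took 2.70%, 6.79% and 5.12%, and Igha 3.40%, 5.25% and 7.24%. Igha alone counted 1690 and 2877 in KO day 0 libraries 1 and 2, against 28 to 259 in the other 4 day 0 libraries. WT day 0 library 2 was the opposite case, with 99.3% Ighm, 1 count of IgG and 28 of Igha among 5213 heavy chain counts, and 17 counts of Igkc. Put as kappa counts per 100 Ighm counts, that library had 0.329, and KO day 0 libraries 1 and 2 had 48.8 and 68.3. KO day 1 libraries 1 and 2 had 229 and 193. KO day 3 library 2 had 265, above each of these values, while KO day 3 library 1 lay between those of day 0 and those of day 1. Libraries with the same number on different days were not shown to be pairs, so these values do not follow 1 culture over time. Ighg2b and Ighg2c share 88.2% of their aligned transcript bases in GENCODE, so their separate counts are less certain than their sum.

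**Figure D2:**
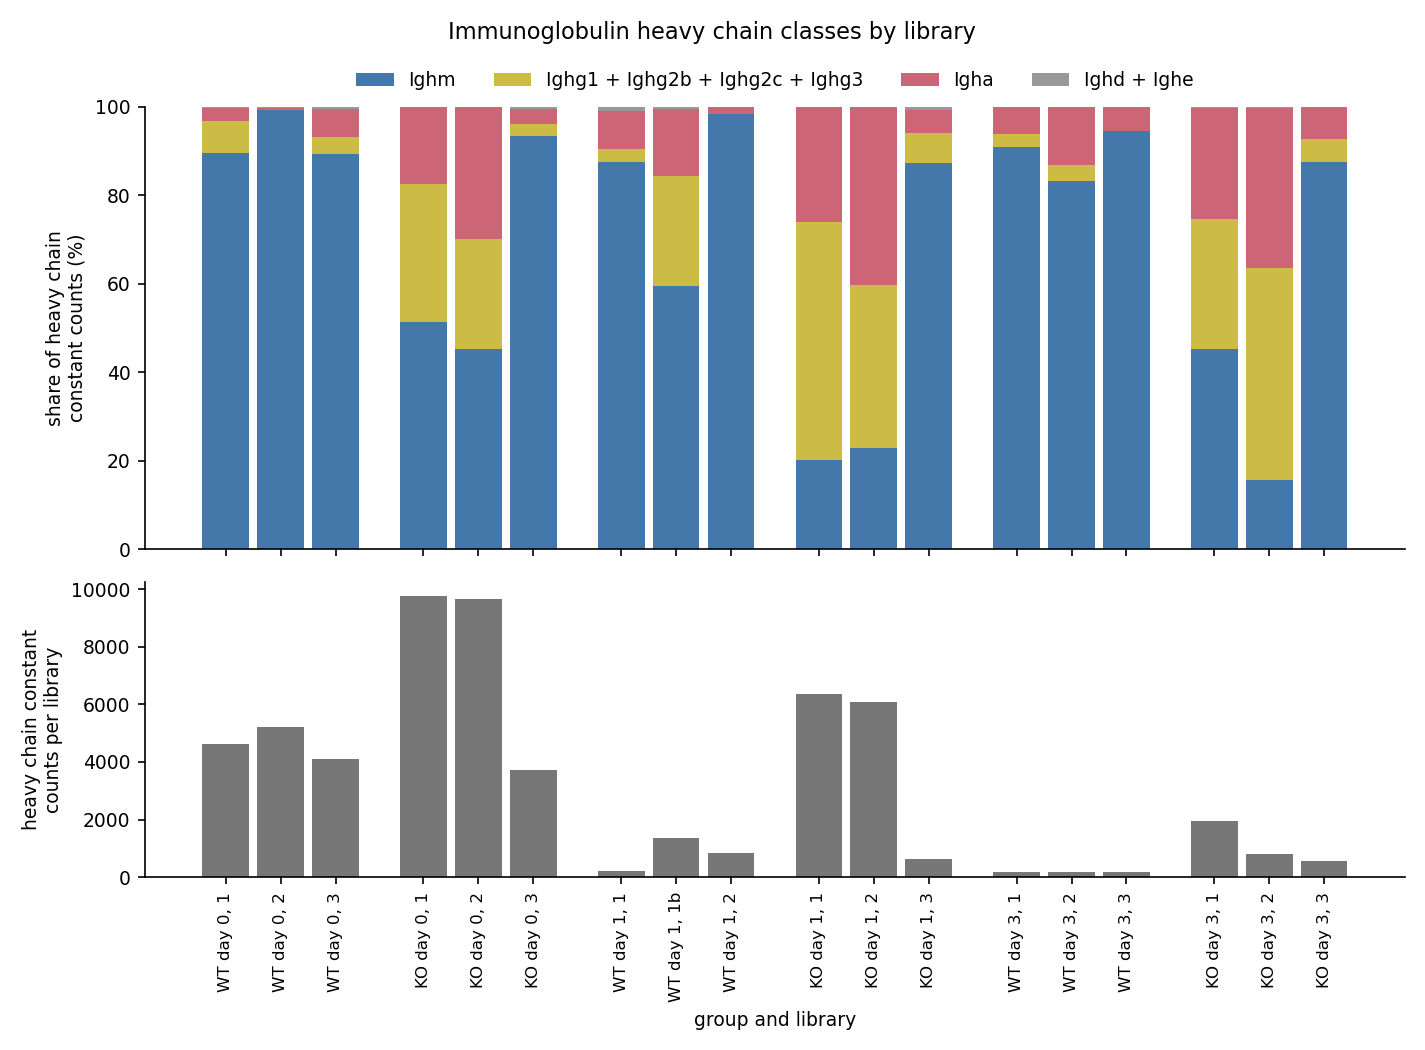
Top: share of heavy chain constant gene counts taken by Ighm, the 4 Ighg genes, Igha and Ighd with Ighe in each of the 18 libraries (%). Bottom: the summed count behind each bar. Ighm takes most of the counts in every WT library and in KO library 3 of each day, while IgG and IgA take about as much or more in KO libraries 1 and 2.

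Variable genes, the segments that an antibody gene picks during rearrangement, were counted on 350 rows (185 Ighv, 162 Igkv and 3 Iglv). KO libraries 1 and 2 held 3755 and 3714 variable counts on day 0, 3619 and 3126 on day 1, and 1268 and 585 on day 3. KO library 3 held 351, 109 and 166. The WT libraries held 416, 32 and 631 counts on day 0, 29 (library 1), 487 (library 1b) and 13 on day 1, and 9, 16 and 10 on day 3. KO libraries 1 and 2 were the highest of each day, as they were for Igkc, and in WT day 0 library 2 the 5174 counts of Ighm went with 15 counts of Ighv.

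Many different segments were seen. At least 1 count fell on 152 and 154 of the 350 rows in KO day 0 libraries 1 and 2, on 153 and 148 on day 1 and on 115 and 101 on day 3. The WT day 3 libraries had 7, 11 and 7 such rows. The leading segment took a small part of the counts in the deep libraries, such as Igkv1-110 with 9.93% (exact 95% interval 8.995 to 10.93) in KO day 0 library 1 and 6.95% (6.15 to 7.81) in KO day 0 library 2. By day 3 it took more in some, with Igkv10-96 at 14.3% (12.5 to 16.4) in KO library 1 and Igkv16-104 at 26.5% (20.0 to 33.9) of 166 counts in KO library 3. Segments of one family are close copies, and reads that fit several could have been placed on any of them. Their levels are given as sums for that reason.

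**Figure D3:**
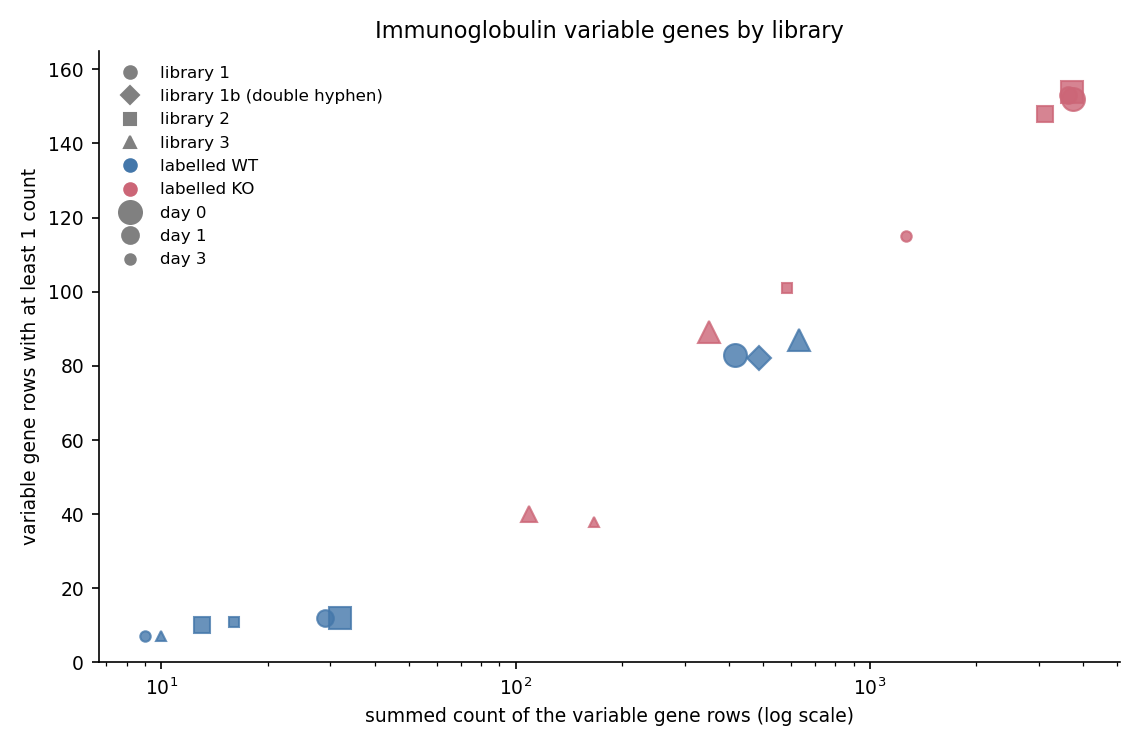
Number of the 350 variable gene rows with at least 1 count (vertical) against the summed count of those rows (horizontal, log scale) in each library. Colour gives the label, symbol the library number and size the day. KO libraries 1 and 2 of days 0 and 1 lie at the top right with 148 to 154 rows, and the WT day 3 libraries at the lower left with 7 to 11.

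Cd79a, Ms4a1, Pax5 and Vpreb3 had low counts on day 0, and on day 3 they were at 0 to 3 counts in each library labelled WT and at 0 to 21 in those labelled KO. Cd79a, a subunit of the receptor pair, held 31, 0 and 85 counts in WT and 57, 37 and 89 in KO on day 0. On day 1 it held 0 (library 1), 50 (library 1b) and 3 counts in WT and 21, 4 and 24 in KO. On day 3 it held 1, 0 and 3 in WT and 18, 7 and 8 in KO. In KO every day 0 library was above every later one, while in WT the values overlapped, since WT day 0 library 2 had none at all and WT day 1 library 1b had 50.

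Ms4a1, Pax5 and Vpreb3 shared that outline. Ms4a1 (CD20) held 17, 0 and 26 counts in WT and 23, 12 and 49 in KO on day 0, and on day 3 it had 0 in all 3 WT libraries and 21, 0 and 1 in KO. Pax5 held 33, 0 and 72 in WT and 19, 10 and 40 in KO on day 0, and 0 in WT and 11, 0 and 4 in KO on day 3. Vpreb3 held 16, 1 and 23 in WT and 11, 6 and 29 in KO on day 0, and 0 in WT and 2, 0 and 0 in KO on day 3. On day 1, WT libraries 1 and 2 had 0 counts of all 3 genes while WT library 1b had 21 of Ms4a1, 19 of Pax5 and 4 of Vpreb3. The KO day 1 libraries had 0, 5 and 14 of Ms4a1, 5, 0 and 15 of Pax5 and 0, 4 and 3 of Vpreb3.

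The libraries in which these 4 genes were high were in part those of Igkc. WT day 0 library 3, WT day 1 library 1b and KO day 3 library 1 were the highest of their group for Igkc and for each of the 4. On day 0 of KO the highest library was number 3 for each of the 4, where Igkc was lowest. Among themselves their log2 CPM went together with r = 0.82 to 0.94 over the 18 libraries, and with Igkc r was 0.50 to 0.69. In WT on day 3, Pax5 was at least 15.8-fold lower (adjusted p = 0.0203, edgeR) and Vpreb3 at least 6.09-fold lower than on day 0 (adjusted p = 0.00947, edgeR), each taken against 3 counts in every day 3 library. These bounds start from the day 0 mean, and WT day 0 library 2 held 0 counts of Pax5 and 1 of Vpreb3. Cd79a, in counts summed and scaled by library size, went 40.3-fold lower (95% counting interval 15.3 to 150.3, adjusted p = 0.0215, edgeR). Ms4a1 was at least 6.53-fold lower with an adjusted p of 0.0523 (edgeR), which missed the threshold. The calls of Cd79a and Pax5 were each lost in 3 of the 6 fits leaving out 1 library (highest adjusted p = 0.0755 for Cd79a, without WT day 0 library 3, and 0.0543 for Pax5, without WT day 3 library 3), and Ms4a1 passed without WT day 0 library 2 (adjusted p = 0.0411).

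In the libraries labelled KO, Vpreb3 was the only one of the 4 that passed from day 0 to day 3 (adjusted p = 0.027, edgeR). Its counts, summed and scaled by library size, were 28.7-fold lower (95% counting interval 7.496 to 243.7). Vpreb3 no longer passed without KO day 0 library 3 (adjusted p = 0.0942) or without KO day 3 library 2 or 3. Cd79a went from 4.46 ± 1.85 to 0.651 ± 0.365 CPM (adjusted p = 0.114), with every day 3 library below every day 0 library. Pax5 went from 1.68 ± 1.11 to 0.294 ± 0.333 CPM (adjusted p = 0.248) and Ms4a1 from 2.04 ± 1.37 to 0.436 ± 0.706 CPM (adjusted p = 0.301), the latter with 21 of its 22 day 3 counts in library 1. None of the 4 passed from day 0 to day 1 in either label.

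Cd79b, the partner of Cd79a in the receptor, kept its own course. It held 115, 74 and 232 counts in WT and 305, 161 and 368 in KO on day 0. On day 1 it held 74 (library 1), 102 (library 1b) and 93 in WT and 86, 93 and 279 in KO, and on day 3 it held 21, 10 and 11 in WT and 92, 57 and 89 in KO. No library lacked it, and WT day 0 library 2 and WT day 1 library 1, both at 0 for Cd79a, held 74 counts each. Cd79b fell by 3.78 on the log2 scale from day 0 to day 3 in WT (SE 0.563, adjusted p = 0.000118), from 10.6 ± 5.52 to 0.763 ± 0.278 CPM. It fell by 2.12 in KO (SE 0.500, adjusted p = 0.00416), from 20.3 ± 7.31 to 4.67 ± 1.05 CPM, and both calls held in every fit leaving out 1 library.

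The level of Cd79b varied with that of the neutrophil genes. Over the 18 libraries log2 CPM of Cd79b and the log2 summed CPM of the 12 neutrophil genes had r = 0.95, where the other 7 tested genes had r = 0.61 to 0.82 with that sum, and Cd79b had r = 0.77 with Cd79a. These are descriptions of libraries that share groups, and the r with the list was computed after values were seen. The 10 genes with the highest r to Cd79b, picked for that pattern, included Cd177, S100a8, Retnlg, Camp and Pglyrp1, all genes of neutrophils or their precursors. The neutrophil list summed to 789.5 to 3408 CPM in WT and 4132 to 13379 CPM in KO on day 0, and to 44.1 to 81.3 CPM and 117 to 1307 CPM on day 3. All 12 of its genes were called lower on day 3 in each label, beside 26.5% of all tested genes in WT and 22.3% in KO. All 12 were counted in every library but WT day 3 library 3, where 1 was at 0. The part of these cells in the values of Cd79b was not tested.

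**Figure D4:**
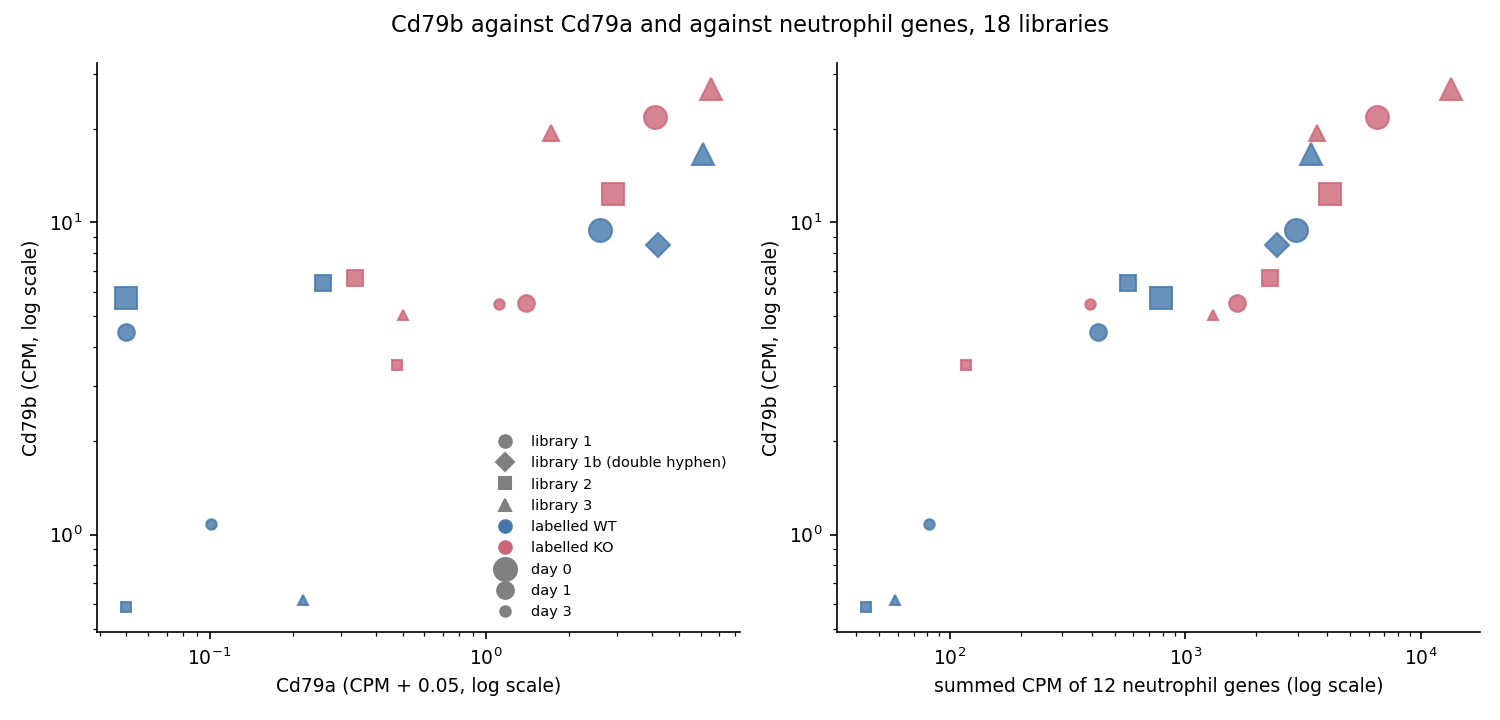
Cd79b (CPM, log scale) in the 18 libraries against Cd79a (left, CPM plus 0.05, log scale) and against the summed level of 12 neutrophil genes (right, CPM, log scale). Colour gives the label, symbol the library number and size the day. Libraries at 0 for Cd79a still hold up to 74 counts of Cd79b, and the points on the right rise together from the WT day 3 libraries to KO day 0 library 3.

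In counts of genes, 6 of the 8 tested were called lower on day 3 than on day 0 in the libraries labelled WT and none higher, where 26.5% of all tested genes were called lower and 23.7% higher. In those labelled KO 3 of 8 (Ighm, Cd79b and Vpreb3) were called lower and none higher, against 22.3% and 20.2% of all genes. Between days 0 and 1, 1 of 8 (Ighm) was called lower in WT, with 0.913% of all genes called lower and 1.44% higher. In KO none of the 8 was called between those days, where 0.0211% of all genes were called in either direction, 1 of the 8 had an unadjusted p under 0.05 (edgeR, 10.2% of all genes) and the DESeq2 Wald test called Ighm and 1.19% of all genes. The WT count was 3 without WT day 3 library 1 or 2, with the stricter filter or with only the libraries compared, and 8 without WT day 0 library 2. In that order these fits called 41.7%, 41.4%, 55.7%, 45% and 39.9% of all genes in either direction. The stricter filter left only Ighm, Igkc, Cd79b and Jchain of the 8 to test.

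**Figure D5:**
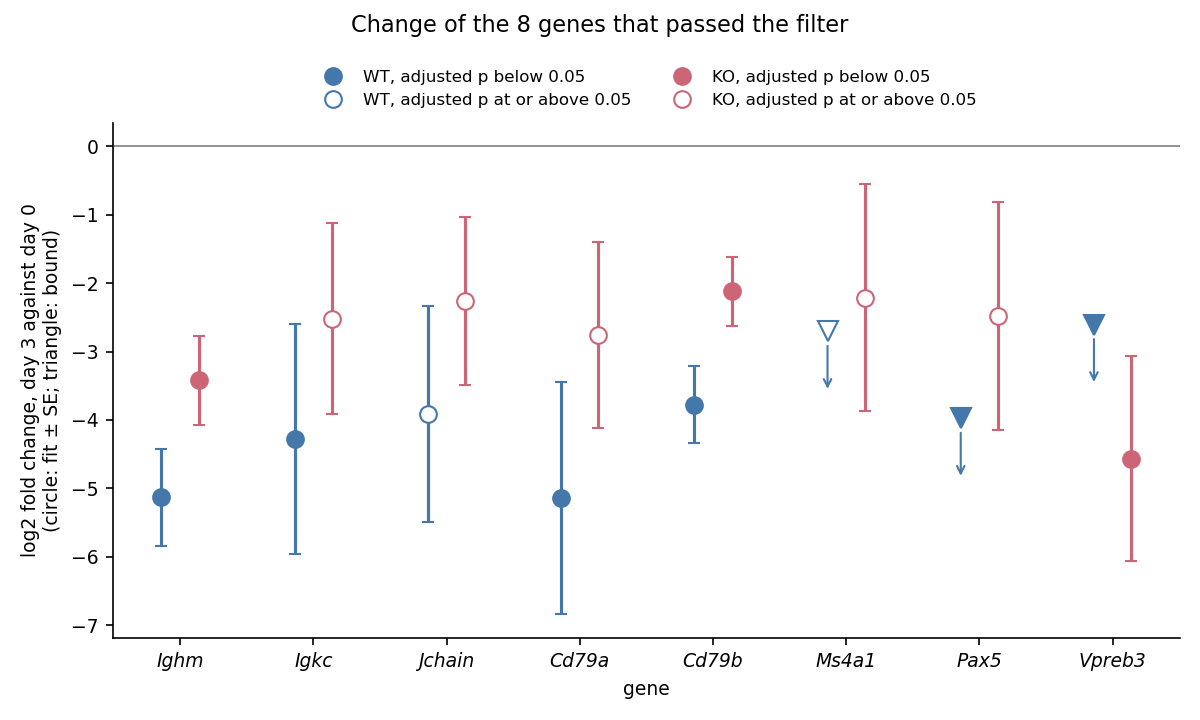
Log2 fold change from day 0 to day 3 of the 8 genes that passed the filter, in the libraries labelled WT (blue) and KO (red). Circles are edgeR estimates with SE, triangles with arrows are bounds where the WT libraries had 0 counts on day 3, and filled symbols have an adjusted p under 0.05. All 16 values lie under 0, and 6 in WT and 3 in KO are filled.

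Between the labels none of the 8 was called on any day (edgeR), and the share of all genes called was 0.119% on day 0, 0.112% on day 1 and 0.14% on day 3. The largest separation was on day 3. There Cd79a, Cd79b, Igkc and Jchain were higher in every library labelled KO than in every library labelled WT, as were 15.9% of all tested genes. The mean of Cd79b was 6.12-fold higher in KO (log2 fold change 2.59, SE 0.549, adjusted p = 0.0992), that of Igkc 27.8-fold (4.78, SE 1.69, adjusted p = 0.344) and that of Jchain 26.4-fold (4.70, SE 1.58, adjusted p = 0.325). Summed counts of Cd79a, scaled by library size, were 8.80-fold higher in KO (95% counting interval 3.13 to 34.2), with a log2 fold change of 3.01 (SE 1.74, adjusted p = 0.567, edgeR). The counting interval leaves out the spread between libraries. Ighm was 3.08-fold higher in the mean with overlapping groups (1.62, SE 0.622, adjusted p = 0.387).

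Unadjusted, 4 of the 8 had a p under 0.05 on day 3 (10.7% of all genes did), 2 had on day 1 (7.9% of all genes) and 1 before RANKL (7.59% of all genes). By the DESeq2 Wald test 3 of them (Cd79b, Igkc and Jchain) were called on day 3, when that test called 1.65% of all genes, with adjusted p values of 0.000926, 0.0388 and 0.0178. On days 0 and 1 the mean of Igkc was 8.11-fold and 12.8-fold higher in KO, with log2 fold changes of 3.02 (SE 1.43, adjusted p = 0.655) and 3.70 (SE 1.49, adjusted p = 0.581), and that of Jchain 8.33-fold and 9.74-fold, and in both the groups overlapped through KO library 3. The day 3 minus day 0 change did not differ between the labels for any of the 8 at the threshold, nor for any gene (0% of all tested, edgeR), and 1 of the 8, Cd79b, had an unadjusted p under 0.05, as did 5.4% of all genes.

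Other genes of the B lineage were counted from lists, 58 genes of which 47 passed the filter. On day 3, 22 of the 47 were called lower and 6 higher in WT, and 13 lower and 4 higher in KO, beside the 26.5% and 23.7% of all genes in WT and the 22.3% and 20.2% in KO given above. The KO share called lower was thus near that of all genes, and the KO share called higher was under it. The median log2 fold change of the 47 was -2.35 in WT (-1.99 with genes at 0 on day 3 set to their bound) and -1.58 in KO, against -0.03 and -0.01 over all tested genes. Without any 1 of the WT day 3 libraries the WT count of 28 called in either direction was 15 to 18. Those fits called 39.4% to 41.7% of all genes, against 50.2% in the main fit.

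Of 13 surface and signalling genes tested, 8 were called lower on day 3 in WT and 7 in KO, and none higher (edgeR). Of all tested genes 26.5% were called lower in WT and 22.3% in KO. Cd74, the invariant chain of antigen presentation that macrophages also make, fell by 3.70 on the log2 scale in WT (SE 0.676, adjusted p = 0.000531) and by 3.41 in KO (SE 0.665, adjusted p = 0.00125). Cd180, Ltb and Ralgps2 were lower in both labels, Cd22 in WT and the Fc receptor-like gene Fcrl1 in KO. Between the labels Fcrl1 was the only one of the 47 called, higher in KO on day 1 by a log2 fold change of 2.08 (SE 0.366, adjusted p = 0.0416), with 727, 546 and 493 counts against 133, 138 and 129, and the call was lost without WT day 1 library 1 or 2 and without any KO day 1 library.

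Of the 9 transcription factor genes, 6 were lower in WT and 2 in KO, where 26.5% and 22.3% of all tested genes were called lower. The KO count was thus near the share of all genes. None of the 9 was called higher in either label, but not all of them went down. Ebf1 held 10 to 157 counts on day 0 and 284 to 350 on day 3 in WT. In KO it held 38 to 171 and 441 to 553. The means of Tcf3 in both labels and of Bach2 in KO were also higher on day 3 than on day 0. Pou2f2, which encodes Oct2, fell by 4.03 on the log2 scale in WT (SE 0.632, adjusted p = 0.000172) and by 2.79 in KO (SE 0.593, adjusted p = 0.00221), and Irf4 fell by 3.48 and 2.11. Spib, Foxo1, Ikzf3 and the Oct coactivator Pou2af1 were called in WT. Pou2af1 held 29, 0 and 31 counts on day 0 and 2, 0 and 1 on day 3 in WT, and Ikzf3 held 13, 0 and 54, then 3, 0 and 1, both again missing from WT day 0 library 2.

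The pro-B and plasma cell lists were mixed. Of all tested genes 23.7% were called higher and 26.5% lower on day 3 in WT, and 20.2% and 22.3% in KO. Of 8 pro-B and pre-B genes tested, Akap12, Sox4 and Bok were higher in WT and Akap12 and Sox4 in KO, while Cd93 was lower in both and Rag1, the recombinase of receptor rearrangement, in WT. Akap12, Sox4 and Cd93 are also used by many other cell types. Of 12 stromal or osteoblast genes tested, 8 in WT and 10 in KO were called higher on day 3 and none lower. Their median log2 fold changes were 2.42 and 3.22 over the 12. Of 10 osteoclast genes tested, 9 were called higher in each label and none lower. The part of any of these cell types in the rise of Akap12, Sox4, Bok and the plasma cell genes was not tested. Rag1 held 20, 0 and 59 counts in WT on day 0 and 1, 0 and 0 on day 3. Of 9 plasma cell genes, Sdc1 and Prdm1 were higher in both labels and Fkbp11 in WT, and the receptors Tnfrsf17 and Tnfrsf13b were lower in both. Sdc1, which encodes syndecan-1, rose already by day 1 in WT (log2 fold change 1.76, SE 0.371, adjusted p = 0.0381), where Jchain did not pass. Mzb1, a chaperone of plasma cells, was named after its values were seen and followed Igkc at low counts, with 20, 17 and 5 in KO against 5, 0 and 3 in WT on day 0.

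Of the 9 tested constant genes beside Ighm and Igkc, 4 were lower on day 3 in WT (Ighd, Iglc1, Iglc2 and Iglc3) and 1 in KO (Ighd). Of all tested genes 26.5% were called lower in WT and 22.3% in KO, so the KO count did not exceed the share of all genes. Ighd, the IgD chain that a mature naive B cell makes beside IgM, held 7, 10 and 19 counts in WT and 12, 0 and 20 in KO on day 0, so it was counted in WT day 0 library 2 where Cd79a was not. Iglc2 and Iglc3 share 95.3% of their aligned transcript bases and their counts are uncertain between them. A list of 14 B lineage genes that macrophages also use gave 10 lower in WT and 12 in KO, among them Irf8, Ptprc, Lyn, Syk and Blnk, beside 9 of 11 macrophage genes lower in each label.

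Over the 18 libraries the genes with a course most like the mean log2 CPM of the 8 tested genes included AA467197, Tuba8, Vcam1, Bmx, Iglc3, Pou2af1, Padi4, Cd24a and Rdh12, with r from 0.92 to 0.94. That mean hides the separate courses. Igkc and Jchain were nearest to Igha (r = 0.98 for both), Ighg2c and variable genes such as Igkv1-110. Ighm was nearest to Wdyhv1 (r = 0.98), Foxo4 and Fcgrt, and had no other immunoglobulin gene among its nearest 10. The nearest genes of single members were listed after values were seen, and r is a description over libraries that share groups.

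WT day 0 library 2 was the case in which the courses came apart most clearly. It had the highest Ighm count of all 18 libraries and 10 counts of Ighd, but 0 counts of Cd79a, Ms4a1 and Pax5, 1 of Vpreb3, 17 of Igkc and 8 of Jchain. In that library the neutrophil list (789.5 CPM), the plasmacytoid dendritic cell list (16.5 CPM) and the T or NK cell list (62.8 CPM) were also the lowest of the 6 day 0 libraries, and Siglech, a marker of plasmacytoid dendritic cells, held 38 counts, within the 1 to 52 of the other 5. The part of any of these cells in the Ighm count was not tested.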

How the data were processed

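Total RNA had been isolated with an RNeasy kit and made into libraries with a SMARTer messenger RNA kit. The authors deposited 1 table with a whole-number read count and an FPKM value (reads scaled by transcript length and depth) for each gene and library. The submitters' processing notes name StringTie and the build GRCm38.p4 (mm10), and the study states that StringTie and Ballgown gave the deposited FPKM values. The aligner and the counting program are not given in the sources used here, nor whether strand was used. The deposited FPKM values served only to order genes within a group; all tests used counts.

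The tests were run with edgeR 4.0.16 under R 4.3.3. Low genes were removed with filterByExpr, libraries scaled by TMM, and all 18 libraries fitted as 6 groups with the quasi-likelihood test (glmQLFit, glmQLFTest). P-values are 2-sided, adjusted by Benjamini-Hochberg over 14241 genes, and called under 0.05. CPM uses TMM-adjusted library sizes. A group with at most 3 counts in every library was taken as at the floor. Against a group at 0 a fold is a bound computed with 3 counts in each library, and with few counts it is the ratio of summed counts with an exact conditional 95% interval. Correlations used log2 CPM with a prior count of 2. The script was tested on simulated data. Promoter sequences were from RefSeq (GRCm38.p6).

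The 9 genes and all lists were chosen with earlier results of these data known. The named genes were these 9, up to 6 called genes of each list by mean CPM, and the 10 genes nearest to the mean of the 8 that passed the filter; others were named after their values were seen. Alternatives were no filter, a stricter filter (5 CPM in 3 libraries), DESeq2 1.42.0 size factors or its Wald test, a fit on just the 2 groups in question, a block for the replicate number (also within label), title style as a covariate or single-hyphen libraries only, each library left out, total-count CPM and a minimum of 3 counts for variable genes. Reads and transcript forms were not analysed here. Same-numbered libraries were checked for shared deviations from their group means: in KO every day 3 library correlated over 0.1 with its own number on day 0 (lowest r 0.13, highest 0.398) and on day 1 (lowest 0.156, highest 0.34). In WT the day 3 libraries did not all do so. Some genes that the rule names are not reported here.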

Additional observations from a re-analysis of the deposited data

How the results depend on the processing

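The title style as a covariate, DESeq2 size factors and the single-hyphen libraries alone changed no count of called genes among the 9 by over 1.5 times. From day 0 to day 3 in WT the count of 6 was 3 with the stricter filter and with only the libraries compared, and 3 to 8 over the fits leaving out 1 library. The count of 28 other B lineage genes was 16, 14 and 15 to 27 under the same settings. Of all genes 50.2% were called in either direction in the main fit, and 55.7%, 45% and 39.4% to 52.6% under those settings. Of the 9 genes the stricter filter left only Ighm, Igkc, Cd79b and Jchain to test. From day 0 to day 1 in WT the count of 1 was 0 with only the libraries compared and 0 to 1 leaving out 1 library, and that of 2 other B lineage genes was 1 with no filter, 1 with the stricter filter, 0 with only the libraries compared, 5 with single-hyphen libraries and 0 to 6 leaving out 1 library (6 without WT day 1 library 1b). In KO between those days the DESeq2 Wald test called 1, and 1.19% of all genes. Between the labels on day 1 the 1 other B lineage gene became 0 with only the libraries compared, 0 with single-hyphen libraries and 0 to 1 leaving out 1 library. The shares of all genes called were 0.0231%, 0.0733% and 0.0892% to 0.899%. On day 3 the count of 0 became 3 with the DESeq2 Wald test and 2 with only the libraries compared, which called 1.65% and 1.17% of all genes. The Wald test also called 1 other B lineage gene. A fit on only the groups compared or without a library has fewer samples, and the stricter filter fewer genes; the cause of the other changes was not tested.

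In KO between days 0 and 3 the deviations of same-numbered libraries correlated by 0.13, 0.135 and 0.398, and the replicate block changed no call of the 9 genes there. In KO between days 0 and 1 they correlated by 0.054, 0.501 and 0.598, and in WT between days 0 and 3 by -0.023 to 0.111. Libraries with different numbers were not compared, so pairing was not shown in either label. Between the labels the correlations ran from -0.393 to 0.321. With the replicate block the count of members called from day 0 to day 1 in WT was 0 (0 also for the other B lineage genes), as it was with the replicate block within label (0 and 0). These fits called 0.0632% and 0% of all genes. With the replicate block the count between the labels on day 3 was 1 (Cd79b, adjusted p = 0.0358, edgeR), beside 0.14% of all genes. Scaled by total counts, Ighm in WT day 3 was 11.2 CPM, and with at least 3 counts the mean number of variable rows in WT day 3 was 1 in place of 8.33. Log2 fold changes of single members were followed over the alternatives only in part. These were the changes from day 0 to day 3 in each label, and those between the labels on day 3 except for Vpreb3. They also held Ighm from day 0 to day 1, Igkc and Jchain between the labels on days 0 and 1, and the differing change of Ighm and Cd79b. None of these changed sign. The remaining changes, some of them small against their SE, were not followed. Counts under about 10 limit Ms4a1, Pax5 and Vpreb3 on days 1 and 3.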
